A study of Ovis aries with 41 samples.

Results

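The genes described here encode the fibroblast growth factors (FGFs), their receptors and the feedback genes that act on the same pathway, in the tail skin of rams. They were taken by symbol from the deposited gene counts, as FGF followed by a number, FGFR1 to FGFR4, FGFRL1, FGFBP followed by a number, SPRY1 to SPRY4, SPRED1 to SPRED3, DUSP6, ETV4 and ETV5, which gave 38 of 31182 genes. Of these, 15 encode heparin-binding ligands, 3 endocrine ligands, 4 FGFs that stay inside the cell, 5 receptors, 1 a binding protein, 4 Sprouty proteins, 3 SPRED proteins, 1 a phosphatase and 2 ETS transcription factors. Skin was collected post-mortem from adult rams of the Improved Jezersko-Solčava breed from 3 places along the tail, its base, its middle (mid-tail) and its tip. The 3 D/D rams (871787, 871868 and 871869) carried 2 derived alleles at HOXB13, whose promoter then holds an insertion, and had long tails. The 4 A/A rams (835507, 871772, 871784 and 871932) were homozygous for the ancestral allele, without the insertion, and had short tails. RNA of each ram and position was sequenced in 2 libraries, except for 871869 (D/D), which had 1 at its mid-tail, so that 41 libraries were made. Nothing in the labels says whether the libraries of a ram and position came from separate pieces of skin, so their counts were summed and the ram was the replicate.

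FGFs are secreted signals that bind a receptor tyrosine kinase at the cell surface together with heparan sulfate, and the receptor then passes the signal through adaptors to RAS and the MAP kinases. Sprouty and SPRED proteins dampen that cascade, DUSP6 removes phosphate from the MAP kinase ERK, and ETV4 and ETV5 are transcription factors whose genes are switched on by FGF signals, as are the genes for several of the inhibitors. In skin the pathway is best known from the hair follicle. In the mouse FGF5 ends the growth phase of the hair, and loss of FGF5 gives long hair in several mammals, while FGF18 keeps the follicle at rest. FGF7 and FGF10 are made by dermal cells and act on the epithelium.

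Library totals ranged from 9177395 to 23431409 counts (median 14039720), and the ram sums held 17132063 to 37645752 counts. Values of single rams are CPM, the counts scaled to the same total, of a ram sum after TMM normalization, listed in the order of the ram numbers given above. The skin identity was checked with marker lists. Keratinocyte markers (7 genes counted) summed to 13362 to 42662 CPM and fibroblast markers (6 genes) to 3190 to 21226 CPM, whereas cartilage and bone markers (5 genes) stayed between 1.68 and 7.01 CPM. One ram stood apart. In the A/A ram 835507 the wool follicle markers (8 genes counted) summed to 2662 CPM at the mid-tail and 872 CPM at the tip, against 11044 CPM at its base, and each of the other 19 ram sums lay above 10000 CPM. Where leaving out 835507 turned a log2 fold change or a difference of changes given below, moved it by over 1.5 times or changed a call, the value without this ram is given beside it. In skin as a whole, fewer cells of a type and less RNA per cell cannot be told apart.

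Reads were found for 36 of the 38 genes. FGF8 and FGF20, ligands known from embryonic tissues, had 0 counts in every library. FGF4 had 2 counts, all in the mid-tail of 1 A/A ram, and FGF6 had 5 counts, likewise in the mid-tail of 1 other A/A ram. The embryonic ligands FGF3 and FGF17 reached 20 counts each over all libraries, the endocrine FGF19 42 and FGF23, a bone hormone, 72. These 8 genes were too low for the edgeR filter and were not tested, so 30 of the 38 were compared between positions. No gene in the deposited counts carried the symbol FGFBP1 or FGFBP2, and FGFBP3 was the 1 binding protein counted, with 269 counts.

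Counts depend on transcript length, which was not known here, so levels are not ranked between genes. By raw counts over all libraries, FGFR1 led with 88410, followed by FGFR2 with 66154 and FGFR3 with 45217, and FGFR4 had 544. Among the secreted ligands FGF7 had the most counts (19325), ahead of FGF18 (7431) and FGF5 (6956). FGF21, a metabolic hormone, was the most counted endocrine ligand (1906), and FGF11 the most counted intracellular FGF (8801). Of the feedback genes SPRY1 had 36935 counts, SPRED1 31847, DUSP6 21364 and ETV5 20674.

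The first comparison asked how skin of the tail tip differs from skin of the tail base in the same rams. FGF5 and FGFRL1 fell at the tip in the mean over the rams, by 1.07 and 0.83 on the log2 scale, and edgeR called no gene of the system higher. DUSP6 (log2 fold change -0.50), SPRY1 (0.39) and FGF18 (0.55) came next and missed the threshold, with adjusted p = 0.0691, 0.0725 and 0.0782 in edgeR. The test was edgeR's quasi-likelihood test with the ram as a block and Benjamini-Hochberg adjustment over 19029 genes, and a call means an adjusted p under 0.05, the level at which the words rose and fell are used. Values after ± are standard errors for log2 fold changes and standard deviations for mean CPM. Of the 30 genes tested, 2 were called and both were lower, while 4.49% of all tested genes were called in either direction and 2.67% were called lower. The median log2 fold change was -0.10 over the 30 genes and -0.02 over all genes, and 17 of the 30 were lower at the tip. Without 835507 the median was -0.05 and 15 of the 30 were lower. FGF5 was the 1 tested gene of the system that was lower in all 7 rams, a pattern shown by 4.05% of all genes, and SPRY1 the 1 that was higher in all 7, against 3.28% of all genes.

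**Figure D1:**
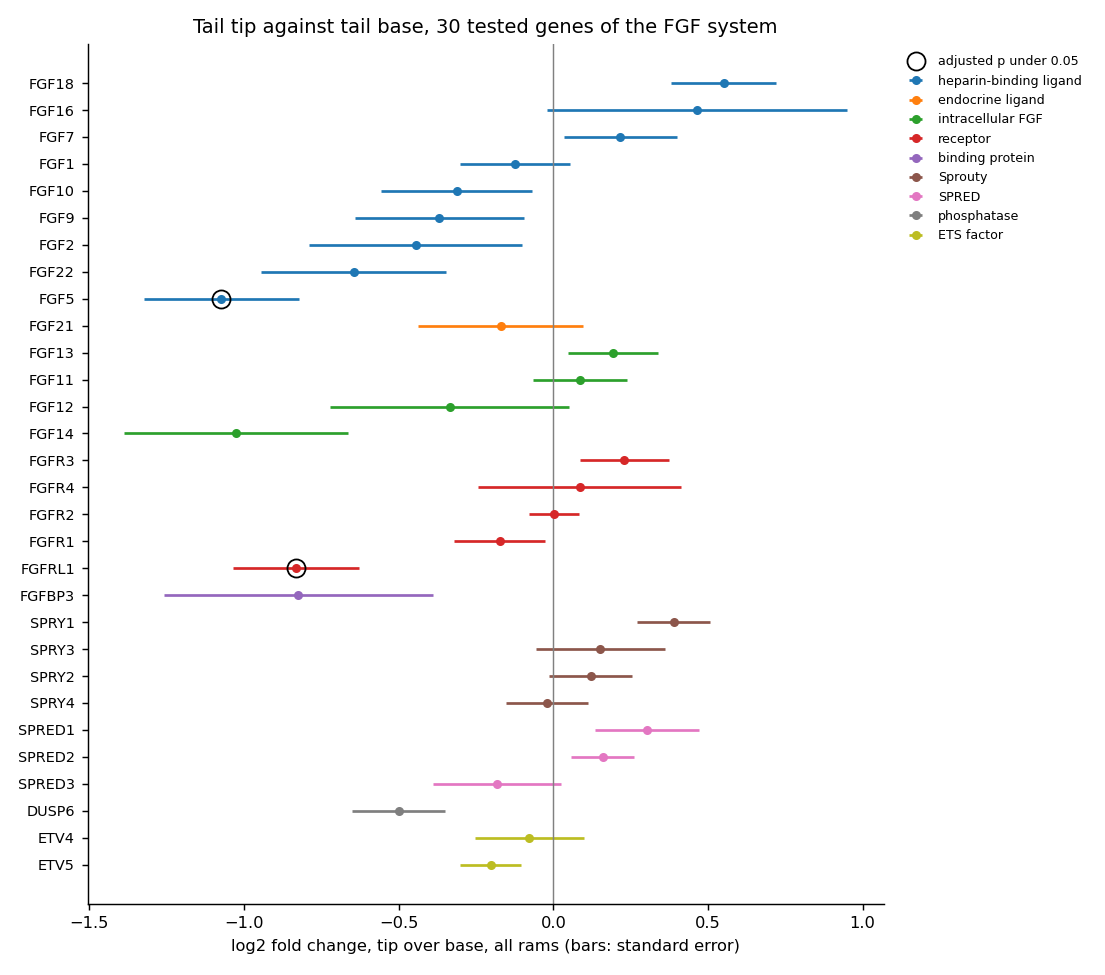
The 30 tested genes of the FGF system are grouped by role, with the log2 fold change of the tail tip over the tail base on the horizontal axis, the standard error as bars and open circles around genes with an adjusted p under 0.05. FGF5 at -1.07 and FGFRL1 at -0.83 carry a circle, and the receptors FGFR1 to FGFR4 lie between -0.17 and 0.23.

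FGF5 (chromosome 6, 95668983 to 95690859 in ARS-UI_Ramb_v3.0) had 7.37, 10.5 and 16.6 CPM at the tip of the D/D rams, against 12.8, 23.02 and 24.5 CPM at their base. In the A/A rams it had 1.29, 5.43, 11.7 and 7.05 CPM at the tip, against 9.73, 17.5, 14.3 and 11.1 CPM at the base. Every ram was lower at its tip than at its own base, although the values of tip and base overlapped between rams in both genotypes. Over all rams FGF5 averaged 8.55 ± 4.89 CPM at the tip and 16.1 ± 5.78 CPM at the base (SD, n = 7 rams), a log2 fold change of -1.07 ± 0.25 (adjusted p = 0.0229) by edgeR. At the mid-tail it had 13.2, 17.7 and 20.5 CPM in D/D rams and 3.64, 7.24, 16.4 and 3.51 CPM in A/A rams, where the D/D ram 871787 and the A/A ram 871784 were above their own base. Between genotypes at the mid-tail the ranges overlapped through the A/A ram 871784, with a log2 fold change of 1.15 ± 0.50 (adjusted p = 0.848) in edgeR, D/D over A/A. The mid-tail lies farther from the base in the longer D/D tails. Taken separately, the tip over base change of FGF5 was -0.83 ± 0.37 (adjusted p = 0.372) in the D/D rams and -1.32 ± 0.34 (adjusted p = 0.0620) in the A/A rams by edgeR, and the change in D/D minus that in A/A was 0.49 ± 0.50 with adjusted p = 0.860. Without 835507 the change in the A/A rams was -0.91 (adjusted p = 0.205) and the difference of the changes 0.08 (adjusted p = 0.9998), both in edgeR. The call over all rams was lost without the ram 871772 (adjusted p = 0.0547 in edgeR), 871787 (0.102), 871868 (0.129) or 871869 (0.0704), and it was kept without 835507, with a log2 fold change of -0.87 (adjusted p = 0.0314).

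**Figure D2:**
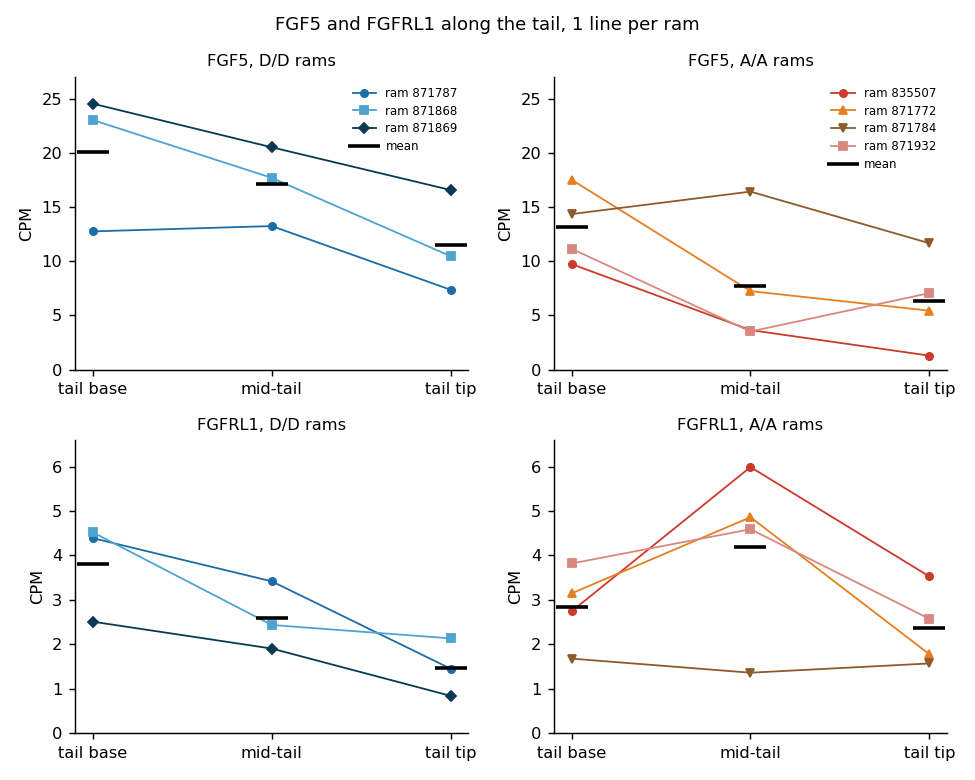
Each line joins the CPM values of 1 ram along the tail, base to tip, with D/D rams in the left panels and A/A rams in the right panels, and black bars mark group means. FGF5 (upper panels) ended below its base value in all 7 rams, and FGFRL1 (lower panels) in all 3 D/D rams and in 3 of 4 A/A rams.

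FGFRL1 (chromosome 6, 118028022 to 118041007) encodes a receptor that binds FGFs but lacks the tyrosine kinase domain of the other 4. It had 1.45, 2.13 and 0.836 CPM at the tip of the D/D rams, against 4.39, 4.52 and 2.51 CPM at their base, and the 2 positions did not overlap. In the A/A rams it had 3.53, 1.77, 1.56 and 2.57 CPM at the tip, against 2.74, 3.15, 1.67 and 3.82 CPM at the base. There the values overlapped, and the ram 835507 was higher at its tip. Over all rams the log2 fold change was -0.83 ± 0.20 (adjusted p = 0.0289) in edgeR, with 1.98 ± 0.873 CPM at the tip and 3.26 ± 1.04 CPM at the base (SD, n = 7). The change was -1.38 ± 0.31 (adjusted p = 0.0578) in the D/D rams and -0.28 ± 0.26 (adjusted p = 0.688) in the A/A rams by edgeR, and the difference between them was -1.10 ± 0.40 (adjusted p = 0.787), D/D minus A/A, which missed the threshold. Without 835507, the 1 A/A ram above its base at the tip, the change in the A/A rams was -0.49 (adjusted p = 0.564) and the difference -0.89 (adjusted p = 0.9998) in edgeR. Leaving that ram out left the change in the D/D rams at -1.38, which was then called (adjusted p = 0.0437 in edgeR). At the mid-tail FGFRL1 had 3.42, 2.43 and 1.90 CPM in D/D rams and 5.99, 4.86, 1.36 and 4.59 CPM in A/A rams, so that each D/D ram lay below its base, while 3 of 4 A/A rams lay above theirs. Neither change from the base was called (adjusted p = 0.756 in D/D rams and 0.560 in A/A rams by edgeR). The genotypes were not called apart at the mid-tail either (adjusted p = 0.8635 in edgeR). The call over all rams was lost without the ram 871772 (adjusted p = 0.0575 in edgeR), 871787 (0.150), 871868 (0.0620), 871869 (0.115) or 871932 (0.107). It was also lost when 1 position effect was fitted for all rams, a setting chosen after seeing the data (log2 fold change -0.78, adjusted p = 0.0698). Without 835507 it was kept, at -0.94 (adjusted p = 0.0181) in edgeR.

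Markers of several cell types differed between tip and base in the same ram sums. The fibroblast markers summed to 6436, 12839 and 5719 CPM at the tip of the D/D rams, against 10095, 15849 and 17151 CPM at their base, and to 3190, 12935, 9234 and 12285 CPM at the tip of the A/A rams, against 13177, 19755, 21226 and 15400 CPM at their base. All 7 rams were lower at the tip, with 5 of 6 markers lower and 1 called. Of the 6 fibroblast markers 5 had an unadjusted p under 0.05, beside 18.4% of all genes. The wool follicle markers summed to 14327, 15298 and 27948 CPM at the tip of the D/D rams, against 13120, 18384 and 18440 CPM at their base, and to 872, 11863, 16213 and 14025 CPM at the tip of the A/A rams, against 11044, 10689, 14127 and 18365 CPM at their base. That sum was higher at the tip in 4 of 7 rams. Gene by gene, the fitted change over all rams was negative for 8 of 8 follicle markers (median log2 fold change -0.33, 0 called by edgeR, 1 with an unadjusted p under 0.05). In the A/A rams 8 of 8 were lower (median -0.83, 4 with an unadjusted p under 0.05 and 0 called), and in the D/D rams 2 of 8 (median 0.14). Without 835507, 4 of 8 were lower over all rams (median -0.01) and 6 of 8 in the A/A rams (median -0.12). The lowest follicle sum and the lowest FGF5 level came from the same sample, the tip of the ram 835507. The keratinocyte sum was higher at the tip in 6 of 7 rams, and the immune and melanocyte sums were lower in 7 of 7. The sebaceous and tendon sums were higher in 7 of 7 rams, the adipocyte, dermal papilla, endothelial and smooth muscle sums were lower in 4, the Schwann sum in 5 and the skeletal muscle and cartilage and bone sums in 3. The single genes of a list did not always move as its sum. Of the dermal papilla markers 4 of 6 were higher over all rams and 3 were called higher by edgeR (median log2 fold change 0.43, highest 2.69), whereas 4 of 5 adipocyte markers were lower and 2 called lower (median -1.96). edgeR called 2 of 3 tendon markers and 1 of 7 keratinocyte markers higher, 1 of 5 melanocyte, 1 of 5 Schwann and 1 of 4 tested immune markers lower, and 0 of the sebaceous, endothelial, smooth muscle, skeletal muscle and cartilage and bone markers, of which 3, 1, 1, 0 and 1 had an unadjusted p under 0.05. An unadjusted p under 0.05 was also found for 5 of 5 melanocyte, 4 of 5 adipocyte and 3 of 3 tendon markers. The same held for 3 of 5 Schwann, 3 of 6 dermal papilla, 3 of 7 keratinocyte and 2 of 4 tested immune markers. The part of these cell types in the changes of FGF5 and FGFRL1 was not tested.

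**Figure D3:**
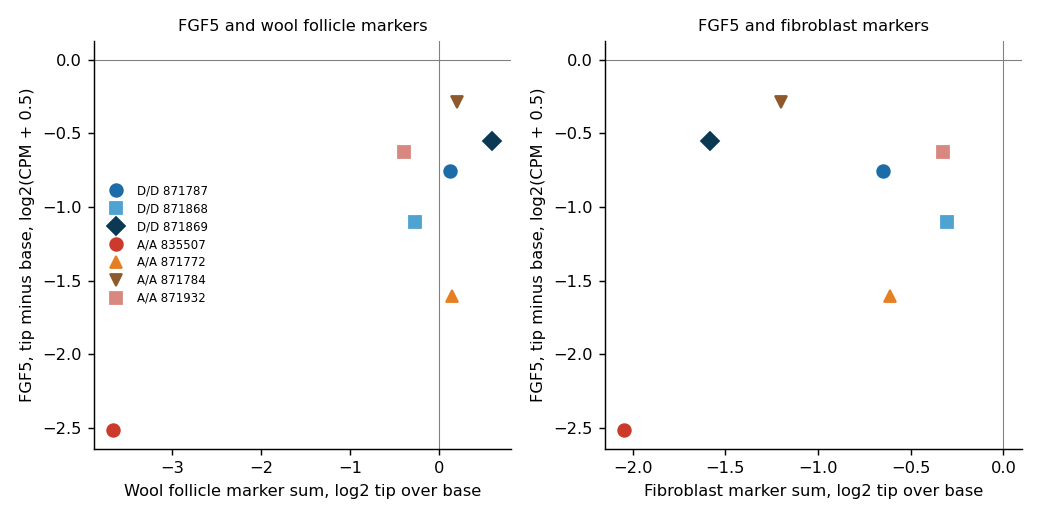
Each point is 1 ram, with the change of FGF5 from base to tip in log2(CPM + 0.5) on the vertical axis and the log2 ratio of tip over base of the summed wool follicle markers (left) or fibroblast markers (right) on the horizontal axis. All 7 rams lie below 0 for FGF5 and left of 0 for the fibroblast markers, while 4 of 7 lie right of 0 for the follicle markers and the A/A ram 835507 stands apart at the lower left.

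Among the other ligands, FGF18 had 12.4, 16.3 and 22.6 CPM at the tip of the D/D rams, against 6.77, 17.3 and 14.5 CPM at their base. In the A/A rams it had 6.20, 14.9, 11.8 and 18.9 CPM at the tip, against 5.84, 6.71, 8.31 and 9.97 CPM at the base. It was higher at the tip in 6 of 7 rams, the D/D ram 871868 being the exception, and the ranges overlapped in both genotypes (log2 fold change 0.55 ± 0.17, adjusted p = 0.0782 in edgeR). FGF22, a relative of FGF7 and FGF10 that was picked after its values were seen, was at 3.19, 3.36 and 7.45 CPM at the tip of the D/D rams, against 3.24, 6.38 and 4.12 CPM at their base, and 0.198, 2.11, 4.91 and 2.90 CPM at the tip of the A/A rams, against 2.65, 3.76, 4.96 and 8.52 CPM at their base. In the D/D rams its log2 fold change was -0.04 ± 0.44 (adjusted p = 0.986), with the ram 871869 higher at its tip, and over all rams it was -0.65 ± 0.30 (adjusted p = 0.264), both in edgeR. Its log2 fold change in the A/A rams was -1.26 ± 0.41 (adjusted p = 0.141) by edgeR, and the lowest value was again that of 835507. Tip and base overlapped in both genotypes. Without 835507 the change was -0.77 (adjusted p = 0.391) in the A/A rams and -0.40 (adjusted p = 0.413) over all rams in edgeR. FGF7 had 24.6, 38.4 and 23.8 CPM at the tip of the D/D rams, against 27.3, 29.00 and 34.8 CPM at their base, and 53.4, 37.2, 22.4 and 41.3 CPM at the tip of the A/A rams, against 32.1, 34.6, 24.5 and 15.7 CPM at their base. FGF7 went both ways between rams, with 0.22 ± 0.18 (adjusted p = 0.578) over all rams in edgeR. FGF1, FGF2, FGF9 and FGF10 had log2 fold changes of -0.12, -0.45, -0.37 and -0.31, with adjusted p of at least 0.517 in edgeR, and without 835507 these were -0.23, -0.67, -0.29 and -0.53, with adjusted p of at least 0.172. The endocrine FGF21 had 4.64, 3.28 and 4.87 CPM at the tip of the D/D rams, against 2.54, 4.12 and 4.36 CPM at their base, and 0.297, 4.30, 3.63 and 3.07 CPM at the tip of the A/A rams, against 1.46, 6.57, 2.02 and 4.66 CPM at their base. FGF21 was lowest at the tip of the ram 835507. Its change over all rams was -0.17 ± 0.27 (adjusted p = 0.795) in edgeR, and its sign turned without that ram, at 0.02 (adjusted p = 0.978).

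Intracellular FGFs are not secreted and bind voltage-gated sodium channels. FGF14 had 0.298, 0.140 and 0.0727 CPM at the tip of the D/D rams, against 0.779, 0.266 and 0.619 CPM at their base, and 1.15, 0.249, 0.213 and 0.456 CPM at the tip of the A/A rams, against 0.708, 0.704, 0.682 and 0.281 CPM at their base. All 3 D/D rams were lower at the tip, and the A/A rams were split into 2 higher and 2 lower, with ranges that overlapped in both genotypes. These levels rest on 7, 5 and 2 counts at the D/D tip, against 19, 8 and 20 counts at the D/D base, and the log2 fold change was -1.03 ± 0.36 (adjusted p = 0.130) over all rams and -1.68 ± 0.57 (adjusted p = 0.204) in the D/D rams by edgeR. FGF11, FGF12 and FGF13 had log2 fold changes of 0.09, -0.33 and 0.19 over all rams and were not called.

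The 4 signalling receptors gave no call between tip and base. FGFR2, whose epithelial splice form is the receptor of FGF7 and FGF10, had a log2 fold change of 0.00 ± 0.08, with an interval of -0.16 to 0.16 (95% normal interval), and it was 0.03 without 835507. For FGFR1 that interval was -0.46 to 0.12, for FGFR3, a receptor of keratinocytes and cartilage, -0.05 to 0.51, and for FGFR4 -0.56 to 0.73. These values average the 2 genotypes. FGFR2 was higher at the tip in all 3 D/D rams and lower in 3 of 4 A/A rams. FGFR1 was lower at the tip in all 3 D/D rams and in 2 of 4 A/A rams. For neither gene was the difference of the changes called by edgeR. The counts do not separate splice forms. FGFBP3, which releases FGFs from heparan sulfate, had 0.383, 0.168 and 0.218 CPM at the tip of the D/D rams, against 1.19, 0.0664 and 0.433 CPM at their base, and 0.428, 0.499, 0.178 and 0.249 CPM at the tip of the A/A rams, against 0.310, 0.986, 0.248 and 0.844 CPM at their base. It was lower at the tip in 5 of 7 rams with overlapping ranges, and the change of -0.82 ± 0.43 (adjusted p = 0.337) in edgeR missed the threshold.

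Among the feedback genes, SPRY1 and DUSP6 lay on opposite sides of 0. SPRY1 had 55.8, 64.3 and 71.4 CPM at the tip of the D/D rams, against 44.9, 58.7 and 62.8 CPM at their base, and 142, 68.3, 50.6 and 51.6 CPM at the tip of the A/A rams, against 64.6, 47.9, 43.99 and 37.8 CPM at their base. It was higher at the tip in all 7 rams, with ranges that overlapped, and the ram 835507 was the highest at every position among the A/A rams. The log2 fold change was 0.39 ± 0.12 (adjusted p = 0.0725) over all rams, and without 835507 it was 0.30 (adjusted p = 0.137), both in edgeR. DUSP6 had 27.4, 32.3 and 48.1 CPM at the tip of the D/D rams, against 55.9, 39.3 and 51.7 CPM at their base, and 23.2, 41.7, 26.2 and 19.2 CPM at the tip of the A/A rams, against 38.2, 40.95, 43.6 and 33.7 CPM at their base. It was lower at the tip in 6 of 7 rams, the A/A ram 871772 being the exception, with -0.50 ± 0.15 (adjusted p = 0.0691) over all rams in edgeR and -0.62 without that ram (adjusted p = 0.0110). SPRED1 had 59.02, 68.2 and 53.6 CPM at the tip of the D/D rams, against 45.1, 42.1 and 56.8 CPM at their base, and 66.5, 57.6, 53.4 and 52.8 CPM at the tip of the A/A rams, against 52.2, 63.4, 50.3 and 29.99 CPM at their base, with 0.30 ± 0.17 (adjusted p = 0.368) in edgeR. ETV5 had 31.6, 38.8 and 42.3 CPM at the tip of the D/D rams, against 31.5, 47.4 and 41.7 CPM at their base, and 34.4, 27.6, 34.5 and 24.2 CPM at the tip of the A/A rams, against 35.1, 41.2, 42.4 and 30.5 CPM at their base, with -0.20 ± 0.10 (adjusted p = 0.293) in edgeR, and was lower at the tip in 5 of 7 rams. The log2 fold changes of the remaining feedback genes, SPRY2, SPRY3, SPRY4, SPRED2, SPRED3 and ETV4, were 0.12, 0.15, -0.02, 0.16, -0.18 and -0.08, and none was called by edgeR. Without 835507 they were 0.06, 0.11, 0.09, 0.13, -0.27 and -0.12, so that SPRY4 turned its sign, and none was called.

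**Figure D4:**
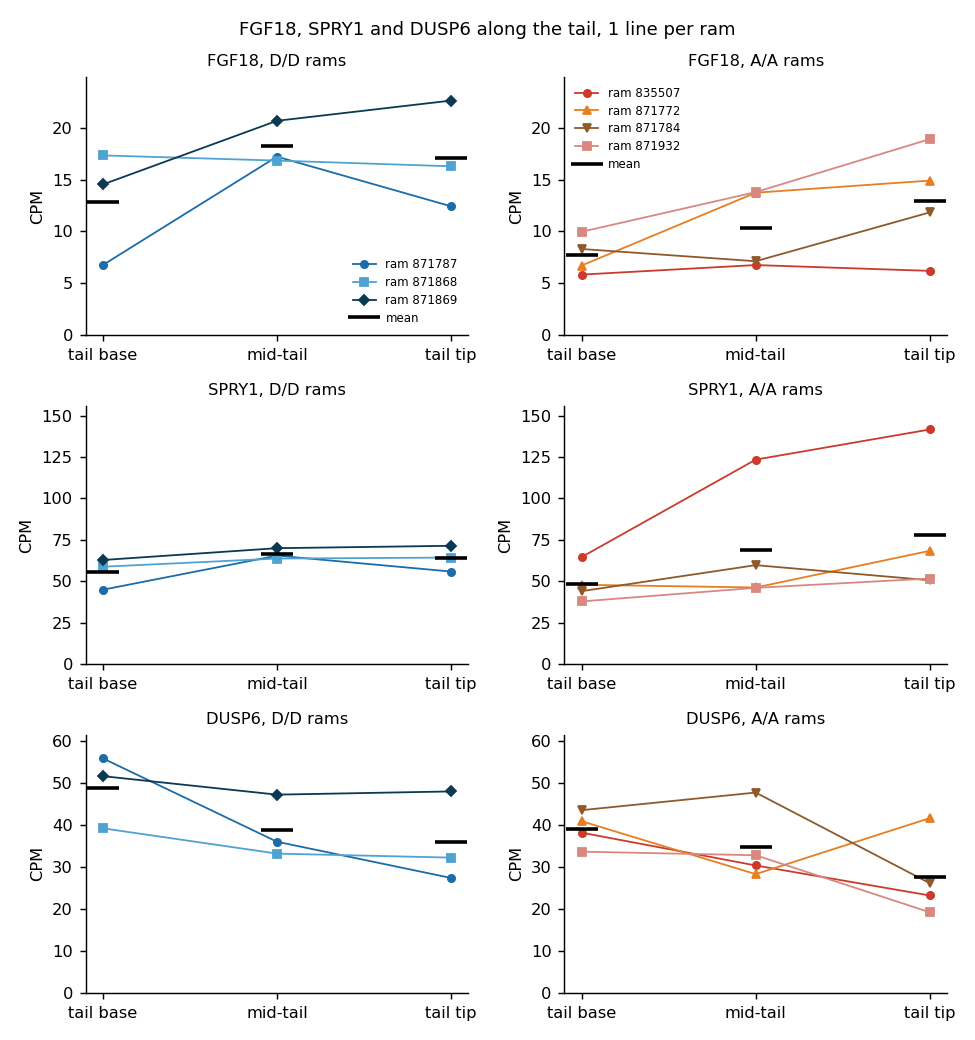
Each line joins the CPM values of 1 ram along the tail, base to tip for FGF18 (top), SPRY1 (middle) and DUSP6 (bottom), with D/D rams on the left, A/A rams on the right and black bars at group means. SPRY1 is higher at the tip than at the base in all 7 rams, FGF18 in 6 of 7, and DUSP6 is lower at the tip in 6 of 7.

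The mid-tail gave fewer calls. In the mid-tail against the base over all rams, 0.137% of all genes and 0 of the 30 genes were called by edgeR, 3 of the 30 had an unadjusted p under 0.05 (11.1% of all genes did), and DESeq2 called 0. SPRY1 and FGF18 had the smallest p-values, with log2 fold changes of 0.34 ± 0.12 (adjusted p = 0.305) and 0.48 ± 0.17 (adjusted p = 0.319) in edgeR. At the mid-tail FGF18 had 17.2, 16.8 and 20.7 CPM in D/D rams and 6.76, 13.7, 7.13 and 13.8 CPM in A/A rams, and SPRY1 had 65.4, 63.7 and 69.9 CPM in D/D rams and 123, 46.2, 59.7 and 45.99 CPM in A/A rams. The ram 835507 had the highest SPRY1 level of the 7 rams there. In the tip against the mid-tail, 0.0263% of all genes and 0 of the 30 were called by edgeR, with 2 of the 30 and 5.33% of all genes at an unadjusted p under 0.05. FGFRL1 had the smallest p (-0.79 ± 0.20, adjusted p = 0.261 in edgeR, lower at the tip in 6 of 7 rams), and DESeq2 called it, as the 1 gene of the 30, with adjusted p = 0.0349. Of all 19029 genes DESeq2 called 124 there.

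Within each genotype edgeR called 0 of the 30 genes. In the D/D rams 0.583% of all genes were called at the tip against the base and 0% at the mid-tail against the base, and 3 and 1 of the 30 had an unadjusted p under 0.05, beside 12.3% and 6.77% of all genes. Over all genes the mid-tail comparison of the D/D rams, with no call in edgeR, had 1289 genes at an unadjusted p under 0.05 and 40 called by DESeq2. In the A/A rams 1.62% were called at the tip and 0.0263% at the mid-tail, and 9 and 7 of the 30 had an unadjusted p under 0.05, beside 14.5% and 10.5% of all genes. Without 835507 it was 7 and 4 of the 30, beside 12.4% and 7.60% of all genes. DESeq2 called FGFRL1 at the tip of the D/D rams, called FGF5, FGF22 and SPRY1 at the tip of the A/A rams, and called 0 of the 30 at either mid-tail. Of all 19029 genes it called 528 at the tip of the D/D rams and 841 at the tip of the A/A rams, more than edgeR. The median log2 fold change of the 30 genes from base to tip was -0.25 in the D/D rams and 0.09 in the A/A rams, beside -0.02 and -0.01 over all genes, and the A/A median was 0.01 without 835507.

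The next comparison asked whether the change from base to tip differs between D/D and A/A rams. edgeR called 0% of all genes and 0 of the 30, 4 of the 30 and 1159 of all 19029 genes had an unadjusted p under 0.05, and DESeq2 called 0 of the 30 and 15 of all genes. Without 835507, 2 of the 30 and 689 of all genes (3.68%) had an unadjusted p under 0.05 and edgeR again called 0. FGF16, a heparin-binding ligand of the FGF9 subfamily, had the smallest p of the 30, with a log2 difference of -2.84 ± 0.96 (adjusted p = 0.756) in edgeR, D/D minus A/A. It had 0.328, 0.166 and 0.186 CPM at the base, then 0.142, 0.0608 and 0.115 CPM at the mid-tail and finally 0.0426, 0.196 and 0.0727 CPM at the tip in the D/D rams. The A/A rams had 0.0885, 0.0939, 0.0310 and 0.0804 CPM at the base, then 0.283, 0.914, 0.104 and 0.616 CPM at the mid-tail and finally 0.0330, 0.943, 0.107 and 0.290 CPM at the tip. At the mid-tail every A/A ram lay above every A/A base value and every D/D ram below every D/D base value, with log2 changes of 2.54 ± 0.64 (adjusted p = 0.216) in A/A rams and -1.13 ± 0.73 (adjusted p = 0.773) in D/D rams by edgeR. FGF16 passed the filter on low counts only through A/A samples of the mid-tail and tip. Its higher values there, and the differences drawn from them, are thus no separate evidence. With all rams it was filtered out of the D/D against A/A comparison at each position, and it was tested in 5 of 7 fits with 1 ram left out. The FGF16 levels rest on 7, 25, 3 and 20 counts at the A/A mid-tail, against 2, 2, 1 and 2 counts at the A/A base, so that counting error is large. At the tip the A/A rams had 1, 34, 3 and 7 counts and the D/D rams 1, 7 and 2, against 8, 5 and 6 at the D/D base. Most of the A/A counts at the tip came from the ram 871772, while 835507 was lower at its tip than at its base. Without 835507 the difference of the changes was -3.43 (adjusted p = 0.9998) in edgeR.

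SPRY2, an inhibitor of the RAS-MAP kinase cascade, followed in the same comparison with -0.75 ± 0.27 (adjusted p = 0.787) in edgeR. It had 17.8, 12.4 and 12.6 CPM at the base, then 18.9, 12.1 and 11.3 CPM at the mid-tail and finally 16.5, 13.6 and 6.97 CPM at the tip in the D/D rams. The A/A rams had 15.7, 10.99, 10.01 and 7.20 CPM at the base, then 24.9, 15.9, 12.8 and 13.2 CPM at the mid-tail and finally 27.3, 13.3, 9.78 and 13.8 CPM at the tip. All 4 A/A rams were higher at the mid-tail than at their base (log2 fold change 0.59 ± 0.18, adjusted p = 0.292 in edgeR). SPRY2 was also picked by its small p in that comparison, so the shared direction is no separate evidence. How many of all genes were higher in all 4 A/A rams was not counted. The ram 835507 had the highest SPRY2 level at the mid-tail and tip of all 7 rams. Without that ram the difference was -0.65 (adjusted p = 0.9998 in edgeR).

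**Figure D5:**
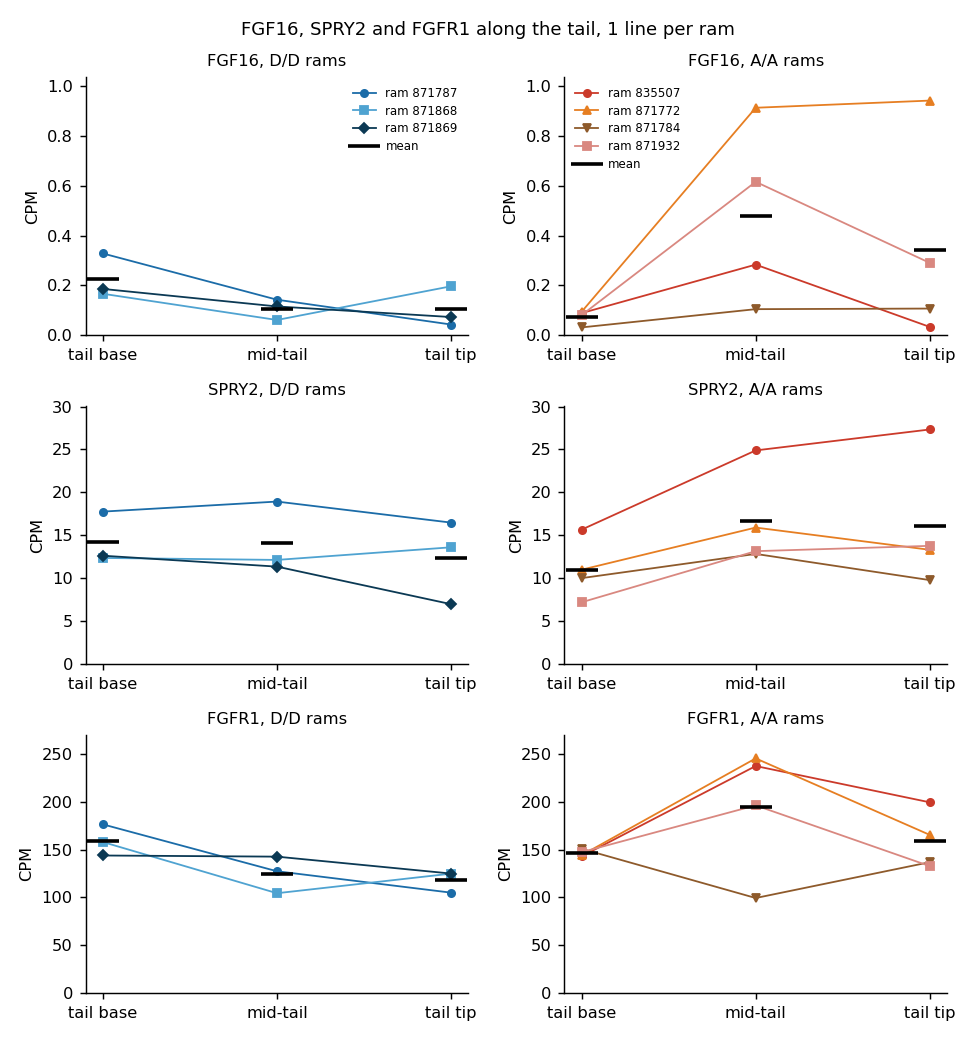
Each line joins the CPM values of 1 ram along the tail, base to tip for FGF16 (top), SPRY2 (middle) and FGFR1 (bottom), with D/D rams on the left, A/A rams on the right and black bars at group means. FGF16 stays below 1 CPM everywhere, and FGFR1 at the tip is 105, 125 and 125 CPM in D/D rams, below 199.6, 166, 137 and 133 CPM in A/A rams.

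Comparing D/D with A/A rams at each position asked whether the genotypes differ in level. The paper treats only the base as comparable, since HOXB13 rises along the tail and mid-tail and tip lie farther out in D/D rams. At the mid-tail and tip, genotype and distance from the base cannot be told apart here. edgeR called 0% of all genes in base skin, 0% in mid-tail skin and 0% in tip skin, and none of the 29, 29 and 28 tested genes of the FGF system. At an unadjusted p under 0.05 there were 2, 3 and 2 of them, beside 567 of 17738, 1014 of 17996 and 1824 of 17842 genes tested. DESeq2 called 0 of them at each position, beside 18, 31 and 65 of all genes. Without 835507 the counts at an unadjusted p under 0.05 were 3 of 29, 1 of 29 and 1 of 27, beside 3.19%, 4.86% and 9.36% of all genes, with 0 called by edgeR. FGF1, FGF18, FGF10, FGF11 and FGFR1, described next, were picked by the smallest p-values in these comparisons. Values of theirs that did not overlap between genotypes are thus no separate evidence, and how many of all genes separate so was not counted.

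At the base, FGF1, which binds every FGF receptor, had 5.78, 5.75 and 7.49 CPM in D/D rams and 2.43, 4.51, 3.13 and 4.06 CPM in A/A rams. The groups did not overlap there, with a log2 fold change of 0.84 ± 0.29 (adjusted p = 0.9999) in edgeR, D/D over A/A. At the tip it had 2.68, 5.47 and 5.49 CPM in D/D rams and 4.91, 3.94, 3.70 and 4.48 CPM in A/A rams, where the groups overlapped. FGF18 averaged 12.9 ± 5.48 CPM in D/D rams and 7.71 ± 1.82 CPM in A/A rams at the base (SD, n = 3 and 4 rams), and 18.2 ± 2.11 CPM in D/D rams and 10.4 ± 3.94 CPM in A/A rams at the mid-tail. Its values overlapped at the base and not at the mid-tail, with log2 fold changes of 0.73 ± 0.33 (adjusted p = 0.9999) and 0.81 ± 0.31 (adjusted p = 0.848) in edgeR.

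FGF10 at the mid-tail had 1.99, 1.76 and 1.32 CPM in D/D rams and 8.99, 2.67, 2.26 and 2.62 CPM in A/A rams. Every D/D ram was below every A/A ram, and 835507 was far above the others, with a log2 fold change of -1.29 ± 0.54 (adjusted p = 0.848) in edgeR and -0.57 without 835507 (adjusted p = 0.999). At the tip FGF11 had 12.8, 12.98 and 13.6 CPM in D/D rams and 22.9, 16.6, 17.9 and 14.6 CPM in A/A rams (-0.46 ± 0.18, adjusted p = 0.458 in edgeR). FGFR1, the most counted receptor, had 105, 125 and 125 CPM in D/D rams and 199.6, 166, 137 and 133 CPM in A/A rams at the tip (-0.43 ± 0.18, adjusted p = 0.458 in edgeR). Without 835507 these were -0.33 (adjusted p = 0.528) for FGF11 and -0.30 (adjusted p = 0.528) for FGFR1 in edgeR. Both genes were lower in every D/D ram than in every A/A ram at the tip, and both overlapped at the base, where FGFR1 had 176, 158 and 144 CPM in D/D rams and 143, 144, 151 and 147 CPM in A/A rams. At the mid-tail FGFR1 had 127, 104 and 143 CPM in D/D rams and 238, 246, 99.4 and 196 CPM in A/A rams, with the A/A ram 871784 below every D/D ram.

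A list of 59 other genes of FGF signalling was counted beside these genes, of which 58 were in the file and 56 were tested between positions. At the tip against the base edgeR called 3 of them, 1 of 21 heparan sulfate genes, 1 of 19 adaptors and RAS-MAP kinase genes, 1 of 10 further targets and 0 of 6 coreceptors and receptor partners (1 of these 6 at an unadjusted p under 0.05, 0 by DESeq2). These 3 of 56 stand beside 4.49% of all genes. DESeq2 called 4 of the 56 there, beside 1503 of all 19029 genes. These were HS6ST2, ETV1, GAB1 and the heparan sulfate carrier GPC3 (-0.50 ± 0.15, adjusted p = 0.0160 in DESeq2). At the mid-tail against the base DESeq2 called 1, ETV1 (0.67 ± 0.16, adjusted p = 0.00754), beside 268 of all genes. At the tip against the mid-tail DESeq2 called 1, GPC3 (-0.67 ± 0.15, adjusted p = 0.00365), beside 124 of all genes. In these mid-tail comparisons edgeR called 0, with 7 and 3 of the 56 at an unadjusted p under 0.05, beside 11.1% and 5.33% of all genes. HS6ST2, which adds sulfate to heparan sulfate, fell at the tip (-0.68 ± 0.15, adjusted p = 0.0174 in edgeR), with 8.22, 7.37 and 6.58 CPM at the tip of the D/D rams, against 10.8, 8.74 and 11.7 CPM at their base, and 4.05, 7.87, 13.4 and 5.97 CPM at the tip of the A/A rams, against 11.6, 16.9, 14.6 and 9.69 CPM at their base. It was lower at the tip in all 7 rams. ETV1, an ETS factor related to ETV4 and ETV5, rose (0.93 ± 0.15, adjusted p = 0.00270 in edgeR), with 6.34, 5.38 and 4.94 CPM at the tip of the D/D rams, against 2.91, 3.42 and 4.15 CPM at their base, and 19.8, 7.87, 5.19 and 7.59 CPM at the tip of the A/A rams, against 6.19, 4.13, 3.41 and 2.49 CPM at their base. It was higher at the tip in all 7 rams and highest in 835507. GAB1, a docking adaptor, rose by 0.40 on the log2 scale and was higher at the tip in all 7 rams (adjusted p = 0.0476 in edgeR). For the A/A rams alone, edgeR called HS6ST2, at -0.86 ± 0.20 (adjusted p = 0.0396), and ETV1, at 1.20 ± 0.20 (adjusted p = 0.00804), 2 of 56 beside 1.62% of all genes. DESeq2 called the same 2, beside 841 of all genes. None of the list was called in the D/D rams alone, where 7 of 56 (12.5%) and 12.3% of all genes had an unadjusted p under 0.05 and DESeq2 called 0 of the list. The GAB1 call over all rams was lost without the ram 871787, 871868, 871869 or 871932 (adjusted p = 0.190, 0.157, 0.149 and 0.123 in edgeR), the HS6ST2 call without 871787 or 871869 (0.0777 and 0.101), while the ETV1 call over all rams was kept whichever ram was left out. Of the calls in the A/A rams alone, that of HS6ST2 was kept without 871784 and lost without any other ram (adjusted p = 0.0640 to 0.164 in edgeR), and that of ETV1 was lost without 871932 (0.0777).

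Several of the 38 genes neighbour each other in the genome. FGF4 lies between FGF19 and FGF3 on chromosome 21, with gaps of 56.6 and 36.4 kb, and FGF6 and FGF23 lie 37.0 kb apart on chromosome 3. All 5 were too low to be tested. FGFRL1 and FGFR3 lie 558.7 kb apart on chromosome 6, where FGFRL1 fell at the tip and FGFR3 had a log2 fold change of 0.23 ± 0.14 (adjusted p = 0.428) in edgeR. SPRY1 and FGF2 lie 467.2 kb apart on chromosome 17, and SPRY4 and FGF1 274.9 kb apart on chromosome 5, with log2 fold changes of 0.39 and -0.45 for the first pair and -0.02 and -0.12 for the second (0.30, -0.67, 0.09 and -0.23 without 835507).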

How the data were processed

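RNA of tail skin was selected on oligo(dT) beads, made into libraries with the CorALL kit and sequenced as paired ends. The authors ran FastQC 0.11.9, used ContextMap with BWA for alignment to ARS-UI_Ramb_v3.0 and obtained strand-specific counts of RefSeq genes from featureCounts, whose version is not given in the sources used here. The deposited values are raw counts. Those of the tail tip are named estimated counts in the table of units for a reason of column naming alone, since the deposited numbers are whole and rounding changed none. Of 31182 genes, 4594 had no count.

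Summing the libraries of each ram at each position gave 21 ram sums of 7 rams. Low counts were removed with filterByExpr, TMM factors were computed, and quasi-likelihood tests were run (edgeR 4.0.16, R 4.3.3). Positions were compared in 1 fit over 19029 genes with the ram as a block and a position effect for each genotype, and the effect over all rams is the mean of the D/D and A/A effects. The same animals gave all positions, and in 21 of 21 pairs the deviations of 2 positions of 1 ram correlated by more than 0.1 (0.143 to 0.819). D/D and A/A were compared on the 7 ram sums of a position (17738, 17996 and 17842 genes tested at the base, mid-tail and tip). P-values were adjusted after Benjamini-Hochberg over all genes tested, and SE is the log2 fold change over the square root of F. Libraries of 1 ram and position differed by more than counting noise in 20 of 20 pairs (chi-square per gene 14.6 to 128). Simulated counts were used for 2 tests alone, the tip against the base over all rams and D/D against A/A at the tip. The second simulation added no spread between rams. Their outcomes are not given here, and the other comparisons were not simulated. All 4 A/A rams in the labels were used, although the methods text counts 3.

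The genes, lists and tests were chosen with earlier results of these data known. Values in every ram are given for genes called in any comparison, the 6 smallest p-values at the tip against the base, the 2 smallest in each other comparison and, since transcript lengths were not used here, the most counted gene of each role. Where groups do not overlap in the comparison that picked a gene, this is no separate evidence, and its share over all genes was not counted. The alternatives were DESeq2 1.42.0, RLE normalization, no filter, no ram block, single libraries with the library number as a replicate block, the study's thresholds and each ram left out, and 1 position effect for all rams was added after the data were seen. Coordinates of all 38 genes came from a RefSeq table with the build of the files.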

Additional observations from a re-analysis of the deposited data

Results flagged for a closer look

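Among the 17 genes whose values are given in every ram, the 4 A/A rams were searched at each position for a value far from the others (Dixon's ratio on log2(CPM + 0.5)), which made 51 groups, and chance flags about 1 in 20 groups. In 4 groups 1 ram stood apart. FGF10 was at 8.99 CPM in the mid-tail and 7.25 CPM in the tip of the A/A ram 835507, above the other 3 rams, and FGF21 was at 0.297 CPM in the tip of the same ram, below the others. FGF14 was at 0.281 CPM in the base of the A/A ram 871932, below the others, which rests on 7 counts. The low wool follicle marker sums at the mid-tail and tip of 835507 are given with the results, and their part in these values was not tested.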

How the results depend on the processing

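The counts of calls depended on the processing. The 26 log2 fold changes named by rule were recomputed in 310 combinations with an alternative. None of these turned its direction (FGF21 and SPRY4, outside these 26 at the tip against the base, did without 835507), 274 stayed on the same side of the threshold, 24 gained a call and 12 lost one. Only a called value can lose a call, so all 12 losses had to fall on the 2 values called by edgeR above, FGF5 and FGFRL1 at the tip against the base. Most of the 274 were values without a call that stayed without one. With 1 ram left out, the FGF5 call was kept in 3 of 7 fits and the FGFRL1 call in 2 of 7. The cause of the differences in counts below was not tested.

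DESeq2 called 5 of the 30 genes at the tip against the base over all rams (FGF5, FGFRL1, DUSP6, SPRY1 and FGF18, against 2 in edgeR), 1 at the tip against the mid-tail, 1 in the D/D tip and 3 in the A/A tip, and 1503, 268, 124, 528, 841, 40 and 147 of all genes in the 7 position comparisons, in the order tip and mid-tail against base, tip against mid-tail, tip against base in D/D and A/A, and mid-tail against base in D/D and A/A (edgeR 855, 26, 5, 111, 308, 0 and 5). It called 15 of all genes for the difference of the changes and 18, 31 and 65 between D/D and A/A in base, mid-tail and tip skin. Single libraries with the ram block and the library number as a replicate block treat libraries of 1 ram as separate. They called 5 of the 30 at the tip over all rams, 1 in D/D, 5 in A/A and 3 in the A/A mid-tail, and 2120, 392, 93, 894, 1248, 43 and 385 of all genes, with 18 for the difference of the changes. With the replicate block alone 2 genes were called between genotypes in base skin, 0 in mid-tail skin and 41 in tip skin. The library numbers did not pair the libraries (median correlation 0.00576 over 190 pairs).

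Without the ram block 0 of the 30 were called at the tip and 122, 8, 0, 2, 18, 0 and 3 of all genes. Without the filter on low counts 1 of the 30 was called in D/D and 1 in A/A at the tip, and 67 and 20 of all genes in the mid-tail and the tip against the mid-tail, 170 in the D/D tip and 2 and 15 in the D/D and A/A mid-tail. With 1 position effect for all rams, added after the data were seen, 14 genes differed between tip and mid-tail. At the stricter thresholds of the study (0.01 for the adjusted p, plus a log2 fold change beyond 1 either way), 0 of the 30 were called and 208, 6, 0, 19, 53, 0 and 0 of all genes.

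Leaving out each ram gave 0 to 3 of the 30 at the tip over all rams, 0 to 1 in D/D, 0 to 1 in A/A and 0 elsewhere, and 299 to 1107, 6 to 84, 0 to 13, 1 to 208, 59 to 293, 0 to 1 and 0 to 30 of all genes in the 7 position comparisons. With 3 D/D and 4 A/A rams, differences between genotypes have wide intervals, and genes of few counts, such as FGF14 and FGF16, are limited by depth.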
